A study of Mus musculus with 6 samples.

Results

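A probe set of the Affymetrix Mouse Exon 1.0 ST array is a small cluster of short probes laid on one stretch of an exon. For some probe sets the array's annotation holds more than 1 gene symbol, and the signal of such a probe set cannot be given to any one of those genes from the annotation. Probe sets with 2 or more symbols were taken from the table of deposited values, which gave 4446 shared probe sets of 229581 in all. A further 209279 probe sets carried 1 symbol and 15856 carried none. Probe sets with the same set of symbols were put together as a symbol group, written with a slash between the symbols of the array, and there were 965 such groups.

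RNA was measured on 6 arrays, 1 per sample of whole testes. The labels name 3 biological replicates of adult Dazap1 mutants (Fn adult) and 3 of young wild types, aged 21 days after birth (Wt P21). The study's text gives the mutants as homozygous for the Fn allele of Dazap1, and all mice as of a mixed C57BL/6 and 129 background. DAZAP1 is an RNA-binding protein that acts in splicing. By the study's methods, the Fn allele is a floxed allele that still holds a neo cassette and makes an aberrant protein with an inserted segment. The mutant arrests before the first meiotic division, and young wild types were chosen for the similar stages of their germ cells. Genotype and age differ together between the groups, so their parts in a difference cannot be told apart. All values below are log2 values as deposited, and differences are Fn adult minus Wt P21 on that scale. In whole testes, fewer cells of a type and less RNA per cell cannot be told apart.

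A probe set can be shared for a number of reasons. Genes that arose by duplication, such as the kallikreins, globins and lysozymes of the mouse, keep exons that are nearly alike, so a short probe matches several copies. A processed pseudogene carries the exons of its parent gene at another place in the genome. Neighbouring genes can overlap or can be joined in a read-through transcript. Some symbols that were separate when the array was annotated have since become names of 1 gene.

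The groups held 1505 symbols, of which 1055 are current names, 425 are older names of a current gene and 25 matched no gene. A group had 2 to 12 symbols, and 677 of the groups had 2. The median number of probe sets in a group was 2 and the largest number was 49, while 309 groups had a single probe set. By the present gene list, 270 groups named genes next to each other on a chromosome, 405 named genes further apart on 1 chromosome and 163 named genes on several chromosomes. Overlapping genes made up 69 groups, symbols that are now 1 gene made up 21, and 37 could not be placed. A pseudogene was named in 189 groups, and in 610 the symbols had the same name stem. Of the 1505 symbols, 670 were carried by shared probe sets only, so that all array signal of those symbols was shared signal.

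No shared probe set named Dazap1 or Nol8, and neither symbol stood alone on a probe set in the annotation used here, which leaves no reading of the mutated gene to set beside the labels. The same held on the shared side for the 20 other genes that the study followed up, which were all carried by probe sets of their own.

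How alike paired genes are outside their exons varied, and the sequence before the start is shown for pairs at the more alike end. It does not show the exon sequence that the shared probes match. The 120 bases before the annotated start are given 5′ to 3′ on the gene's strand for 4 pairs whose shared probe sets are described below (RefSeq sequences of build GRCm38.p6). Capitals mark bases with no identical partner in the alignment of the pair, and runs of capitals at an end come from starts annotated at slightly different points. Selenbp1 (chr3:94932963-94933082, plus strand) and Selenbp2 (chr3:94693453-94693572, plus strand) encode selenium-binding proteins.
Selenbp1: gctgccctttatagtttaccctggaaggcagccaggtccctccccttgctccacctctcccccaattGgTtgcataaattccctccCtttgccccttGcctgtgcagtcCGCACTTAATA
Selenbp2: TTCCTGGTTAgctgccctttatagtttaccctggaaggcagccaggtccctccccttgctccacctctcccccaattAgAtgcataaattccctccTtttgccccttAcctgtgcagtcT
Hba-a1 (chr11:32283552-32283671, plus strand) and Hba-a2 (chr11:32296372-32296491, plus strand) are the adult alpha globin genes, and the only unmatched bases of the pair are 3 at an end.
Hba-a1: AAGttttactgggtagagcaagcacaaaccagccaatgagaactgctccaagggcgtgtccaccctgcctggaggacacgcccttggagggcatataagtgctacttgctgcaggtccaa
Hba-a2: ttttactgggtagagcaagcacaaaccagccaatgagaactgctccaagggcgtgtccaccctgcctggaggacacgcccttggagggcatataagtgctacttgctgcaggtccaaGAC
Lyz1 (chr10:117292869-117292988, minus strand) and Lyz2 (chr10:117282273-117282392, minus strand) encode lysozymes and differed at 9 of 120 bases.
Lyz1: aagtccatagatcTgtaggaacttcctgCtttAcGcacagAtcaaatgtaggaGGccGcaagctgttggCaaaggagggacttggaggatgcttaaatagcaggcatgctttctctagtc
Lyz2: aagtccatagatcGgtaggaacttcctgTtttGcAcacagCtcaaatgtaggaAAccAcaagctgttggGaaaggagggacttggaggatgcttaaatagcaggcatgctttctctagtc
Slx (chrX:26545566-26545685, minus strand) and Gm5168 (chrX:26051042-26051161, minus strand), which is the current name of the array's EG382275, are copies of an X-linked gene of the male germ line.
Slx: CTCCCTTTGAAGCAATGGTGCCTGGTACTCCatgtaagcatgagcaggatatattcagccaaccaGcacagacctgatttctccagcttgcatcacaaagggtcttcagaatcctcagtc
Gm5168: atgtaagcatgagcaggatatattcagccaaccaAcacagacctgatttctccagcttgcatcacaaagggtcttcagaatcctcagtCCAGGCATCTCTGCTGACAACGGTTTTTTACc
Over the whole window of 300 bases, identity was 90.7% for the Selenbp pair, 99.0% for the Hba pair, 83.0% for the Lyz pair, 86.7% for Slx and Gm5168, and 59.0% for the kallikreins Klk1 and Klk1b5.

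The median of shared probe sets lay between that of probe sets with 1 symbol and that of probe sets with none. Their median on an array was 8.82, 8.80 and 8.78 in Fn adult and 8.51, 8.44 and 8.67 in Wt P21, against 9.10, 9.07 and 9.05 in Fn adult and 8.90, 8.76 and 9.05 in Wt P21 for all probe sets. Probe sets with no symbol had medians of 7.93, 7.90 and 7.87 in Fn adult and 7.73, 7.73 and 7.83 in Wt P21. These levels come from different probes and describe the array's signal only. Of the shared probe sets, 1529 (34.4%) lay below the lower quartile of the table (7.50) and 1169 (26.3%) above its upper quartile (10.33), so both tails were filled. The low tail held olfactory and vomeronasal receptors, genes for smell that are mostly silent outside the nose. They filled 187 groups with 416 probe sets at a median level of 5.12. At the bright end, the 93 histone probe sets had a median level of 11.89 and the 20 tubulin probe sets 12.73.

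Of the 4446 shared probe sets, 243 rose in Fn adult (5.47%) and 18 fell (0.405%) in the limma fit across all probe sets, at an adjusted p under 0.05. Over all probe sets 3.68% rose and 0.37% fell. The median difference was 0.06 for shared probe sets and 0.08 for all. A level could be formed for the 480 groups with at least 3 probe sets, as the median of their probe sets on an array, and these were fitted together with the levels of 15207 genes from their own probe sets. Here 43 groups rose (8.96%) and 6 fell (1.25%), where 7.94% of all levels rose and 0.912% fell. After quantile normalization of the arrays the same counts were 39 and 18, which moved the share of rises among called groups to 68.4%, against 87.8% as deposited, and the median difference over all levels to -0.05, against 0.07. The shares of calls in the groups lay near those of the whole table, and what follows describes which groups they were.

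**Figure D1:**
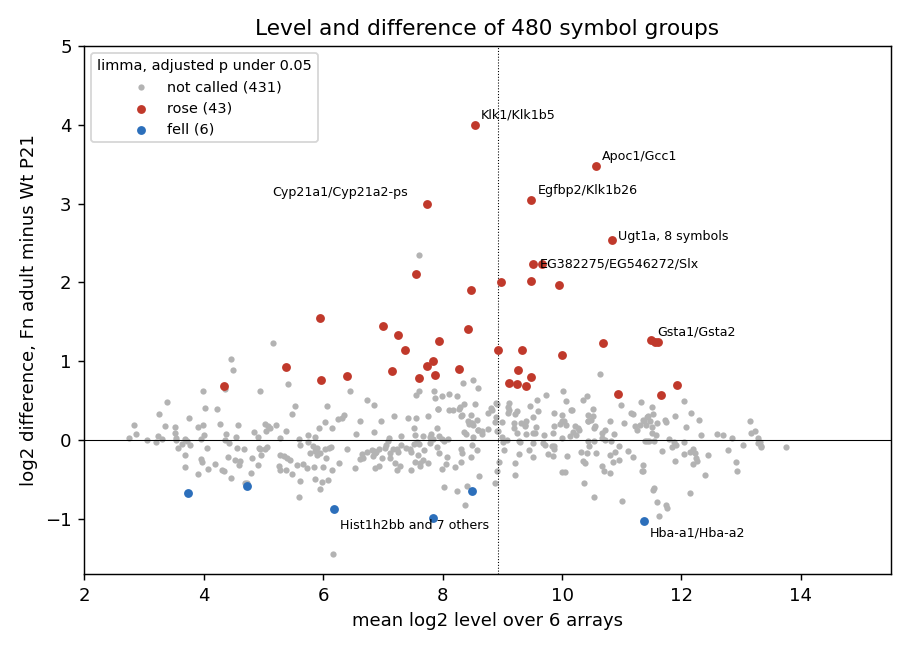
Mean log2 level over the 6 arrays (x axis) against the log2 difference Fn adult minus Wt P21 (y axis) for the 480 symbol groups with at least 3 probe sets; red and blue points rose or fell in the limma fit, grey points did not pass, and the dotted line is the median gene level. The 43 groups that rose reach 4.0 for Klk1/Klk1b5, and the 6 that fell reach -1.02 for Hba-a1/Hba-a2.

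The kallikreins had the largest rises. Tissue kallikreins are secreted serine proteases, and the mouse has a large cluster of Klk1b copies next to Klk1 on chromosome 7, several of which are known from Leydig cells of the adult testis. The level of Klk1/Klk1b5 was 10.48, 11.04 and 10.12 in Fn adult and 6.61, 6.31 and 6.71 in Wt P21. The groups of arrays were far apart, with a difference of 4.0 ± 0.23 (SE), or 16-fold, and an adjusted p of 5.1e-05. All 8 probe sets of the group rose, by 3.01 to 4.59. Egfbp2/Klk1b26, whose symbols are now both the gene Klk1b26, a protease that binds epidermal growth factor, read 10.97, 11.50 and 10.55 in Fn adult and 8.07, 7.86 and 7.96 in Wt P21. This difference was 3.04 ± 0.22 (SE, adjusted p = 0.00021), and 3 of its 4 probe sets rose, while the other, at 5.51, 6.54 and 5.49 in Fn adult and 5.46, 5.70 and 5.50 in Wt P21, differed by 0.29 (adjusted p = 0.60).

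The smaller kallikrein groups behaved in the same way. Across the 15 groups made only of Klk1, Klk1b and Egfbp2 symbols, 28 of 29 probe sets rose and none fell, with a median difference of 3.40. The 5 largest rises among probe sets of groups with fewer than 3 probe sets were all from these genes. Probe set 5369189 of Klk1b21/Klk1b24 read 11.16, 11.52 and 10.98 in Fn adult and 7.10, 6.79 and 7.77 in Wt P21, a difference of 4.0 (adjusted p = 0.00048). The other 4 differed by 3.59 to 3.81 and belonged to Egfbp2/Klk1b26/Klk1b8, Klk1b11/Klk1b21/Klk1b24, Egfbp2/Klk1b16 and Klk1b26/Klk1b8. The lowest difference among the kallikrein probe sets that rose was 1.36, at probe set 4333598 of Klk1b24/Klk1b9, which was already at 11.17, 11.14 and 11.14 in Wt P21.

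Groups naming genes of steroid and foreign compound metabolism follow, gathered by role after their values were seen. Most cytochrome P450 groups were not called: of 22 with a level 1 rose, 1 fell (the Cyp3a group described below) and 20 did not pass, and 3 of their 150 probe sets rose and 3 fell. Cyp21a1, the steroid 21-hydroxylase, shares probe sets with the pseudogene Cyp21a2-ps. Cyp21a1/Cyp21a2-ps read 9.98, 9.05 and 8.70 in Fn adult and 6.39, 6.11 and 6.25 in Wt P21, a difference of 2.99 ± 0.29 (SE, adjusted p = 0.00093). The 8 probe sets of Cyp21a1 alone gave a level difference of 3.13, and 6 of them rose. Hsd3b4/Hsd3b5, of the 3-beta-hydroxysteroid dehydrogenase family, read 8.15, 7.74 and 7.94 in Fn adult and 7.46, 6.56 and 6.38 in Wt P21 (difference 1.15, adjusted p = 0.035), although none of its 3 probe sets passed alone. That call was lost without any one Fn adult array or Wt P21 replicate 2 (1.02), after quantile normalization (1.04) and with the mean of probe sets (0.61). Akr1c12/Akr1c13, 2 aldo-keto reductases, lay low, at 6.91, 6.91 and 6.62 in Fn adult and 6.25, 5.88 and 5.85 in Wt P21 (difference 0.82, adjusted p = 0.018). It no longer passed when Fn adult replicate 1 or 2 or Wt P21 replicate 2 was left out.

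Ugt1a is a locus in which alternative first exons are joined to common last exons, and its enzymes attach glucuronic acid to bilirubin, steroids and drugs. The group of 8 Ugt1a symbols read 12.06, 12.01 and 12.24 in Fn adult and 9.70, 9.22 and 9.75 in Wt P21. All 9 of its probe sets rose, by 1.89 to 2.71, and the level differed by 2.54 ± 0.17 (SE, 5.83-fold, adjusted p = 0.00012). The group of 7 symbols, without Ugt1a6a, was dimmer, at 8.33, 8.64 and 8.74 in Fn adult and 7.51, 7.33 and 7.07 in Wt P21, and 8 of its 16 probe sets rose, with differences between -0.63 and 2.83. Only 4 of the Ugt1a symbols had a probe set of their own, 1 each. Those of Ugt1a5 (2.21) and Ugt1a2 (1.28) rose, and those of Ugt1a9 (-0.02) and Ugt1a10 (-0.23) did not pass.

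Glutathione transferases couple glutathione to reactive compounds. Gsta1/Gsta2 read 12.21, 12.02 and 12.13 in Fn adult and 10.85, 11.09 and 10.61 in Wt P21, a difference of 1.27 ± 0.15 (SE, adjusted p = 0.0026), and all 4 probe sets rose by a similar amount, 1.20 to 1.37. Gstp1/Gstp2 read 10.49, 10.69 and 10.43 in Fn adult and 9.84, 9.19 and 9.33 in Wt P21 (difference 1.08, adjusted p = 0.011). It no longer passed when Fn adult replicate 1 or 2 was left out. Over the family, 7 of 11 shared probe sets rose. Selenbp1/Selenbp2, whose start regions are printed above, read 10.18, 9.71 and 9.82 in Fn adult and 8.66, 8.66 and 8.96 in Wt P21 (difference 1.14, adjusted p = 0.0058), and 16 of its 19 probe sets rose.

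Apoc1/Gcc1 joins the apolipoprotein C1 gene on chromosome 7 and a golgin gene on chromosome 6. Its level was 12.63, 12.11 and 12.19 in Fn adult and 8.61, 9.10 and 8.80 in Wt P21, a difference of 3.47 ± 0.19 (SE, 11.1-fold, adjusted p = 4.1e-05), with all 3 probe sets between 3.23 and 3.66. The 1 probe set of Apoc1 alone differed by 3.29, whereas the 10 probe sets of Gcc1 alone gave a level difference of 0.20 (adjusted p = 0.57). Creg1/Pappa2, a secreted glycoprotein gene and a pregnancy-associated protease gene further along chromosome 1, read 12.20, 12.31 and 12.18 in Fn adult and 11.06, 10.92 and 10.99 in Wt P21 (difference 1.24, adjusted p = 0.00084). All 5 of its probe sets rose, and Creg1's own single probe set differed by 0.89.

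**Figure D2:**
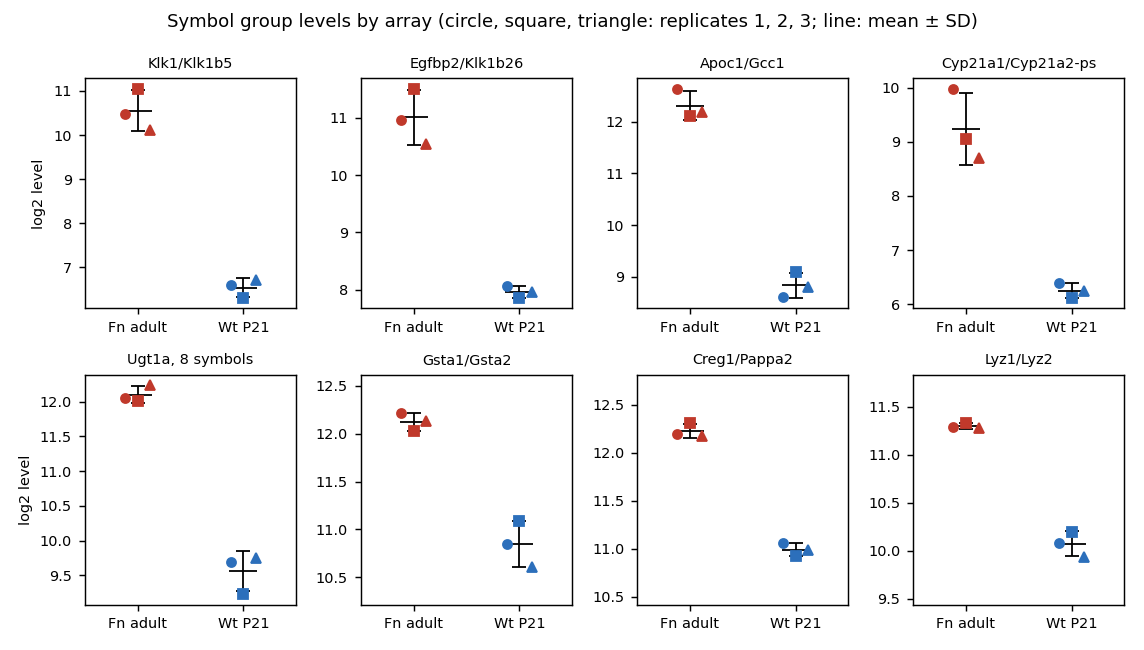
Log2 level (y axis) of 8 symbol groups that rose, with Fn adult on the left and Wt P21 on the right of each panel; circles, squares and triangles are replicates 1, 2 and 3, and the line with caps is the mean ± SD. In each panel the Fn adult arrays all lie above the Wt P21 arrays, by 1.23 for Lyz1/Lyz2 and up to 4.0 for Klk1/Klk1b5.

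Markers of Leydig cells, which make androgens, moved in the same direction as the groups above. Of the 5 listed, 4 had a level of their own (Star, Cyp11a1, Cyp17a1 and Hsd17b3) and all 4 rose, with a mean over markers of 12.02 to 12.24 in Fn adult and 9.70 to 10.32 in Wt P21. Their part in these results was not tested.

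Several groups that rose name genes known from immune cells, gathered here after their values were seen. Lyz1/Lyz2 read 11.29, 11.33 and 11.28 in Fn adult and 10.08, 10.20 and 9.94 in Wt P21, a difference of 1.23 ± 0.12 (SE, adjusted p = 0.0011). The own levels of both genes also rose, Lyz2 by 1.32 with 6 of 6 own probe sets past the test and Lyz1 by 0.67 with 1 of 5. C4a/C4b, which encode complement component 4 and its sex-limited copy, read 9.78, 9.47 and 9.27 in Fn adult and 8.12, 8.32 and 8.64 in Wt P21 (difference 1.15, adjusted p = 0.00875), with all 31 probe sets higher in Fn adult and 15 of them past the test. Gp49a/Lilrb4, receptors of myeloid cells, read 9.18, 9.19 and 9.01 in Fn adult and 7.71, 8.02 and 7.42 in Wt P21 (difference 1.41, adjusted p = 0.0026). Birc1f/Naip5, sensors of bacterial proteins, differed by 0.87 (adjusted p = 0.0074), with all 23 probe sets higher. Cd1d1/Cd1d2, of a family that presents lipids to T cells, differed by 0.95 (adjusted p = 0.016), and 1 gene of the pair is annotated as a pseudogene. H2-T10/H2-T17/H2-T22 of the class I histocompatibility genes differed by 1.34 (adjusted p = 0.020), though none of its 3 probe sets passed alone. The other 6 groups with a level that name an H2 gene did not pass, the group with most probe sets among them being 0610037M15Rik/H2-gs10/H2-Q1/H2-Q6 with 25 (difference 0.39, adjusted p = 0.071). Among the 6 were H2-T10/H2-T22 with 11 probe sets and H2-T10/H2-T17/H2-T22/H2-T9 with 10. Their matched symbols are the same current genes, H2-T10 and H2-T22, as those of the group that rose. The 6 own probe sets of H2-T10 gave a level difference of 0.23 (adjusted p = 0.49), and 0 of them rose. Without any one Fn adult array the calls of Cd1d1/Cd1d2 and H2-T10/H2-T17/H2-T22 were lost, with differences for Cd1d1/Cd1d2 of 0.82, 1.01 and 1.01 without replicates 1, 2 and 3. With the mean of probe sets in place of the median, Cd1d1/Cd1d2 differed by 0.39 and Gp49a/Lilrb4 by 0.77, both still past the test.

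Macrophage markers also moved with these groups. All 5 listed genes rose (Cd68, Lyz2, Mrc1, Csf1r and Adgre1), of which Lyz2 is itself named by a shared group, with a mean over markers of 9.91 to 9.94 in Fn adult and 8.82 to 9.01 in Wt P21. Their part in the differences of the immune groups was not tested. Sertoli cell markers went both ways, since Trf (1.08) and Clu (0.63) rose, Amh (-0.68) fell and Sox9 (0.02) did not pass. Myoid cell and endothelial markers had no member past the test, 4 genes each.

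The X chromosome was looked at apart because it carries many multicopy genes of the male germ line. Of the 31 X-linked groups with a level, 10 rose and none fell, with a median difference of 0.51. Over all 480 groups with a level, 43 rose (8.96%) and 6 fell (1.25%), with a median difference of 0.04. The X-linked groups are not separate observations, since 6 of the 10 are combinations of the same 4 symbols, Slx, EG382275, EG546272 and EG546282. The share of rises on the X was not tested against that of all groups. Slx encodes a protein of the spermatid cytoplasm and is present in many copies. EG382275/EG546272/Slx read 10.53, 10.77 and 10.59 in Fn adult and 7.84, 7.50 and 9.84 in Wt P21 (difference 2.24 ± 0.52 SE, adjusted p = 0.034). The third Wt P21 array lay well above the other Wt P21 arrays and nearer to the Fn adult arrays. The remaining 5 groups of these symbols differed by 1.91 to 2.23. Over the 8 groups that hold only these symbols, all 40 probe sets were higher in Fn adult and 13 rose, with array medians of 10.45, 10.75 and 10.55 in Fn adult and 7.84, 7.42 and 9.82 in Wt P21. The 3 probe sets of Slx alone gave a level difference of 2.34 (adjusted p = 0.020).

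Tgif2lx/Tgif2lx2, X-linked homeobox genes of the testis, also had Wt P21 replicate 3 above the other Wt P21 arrays, with 8.39, 8.59 and 8.84 in Fn adult and 5.72, 5.85 and 7.91 in Wt P21 (difference 2.11, adjusted p = 0.039). The same was seen in EG546185/Gmcl1l, which did not pass (2.35, adjusted p = 0.060), with 8.44, 8.95 and 8.93 in Fn adult and 5.31, 5.69 and 8.27 in Wt P21. The spermatid marker Acrv1, an acrosomal protein gene, read 8.87, 9.08 and 9.27 in Fn adult and 7.16, 7.44 and 9.58 in Wt P21. The raised Wt P21 replicate 3 of Acrv1 was not seen at that size in the other spermatid markers. In Wt P21, Prm1 read 8.26, 7.95 and 8.58 and Prm2 8.18, 8.66 and 8.34. Tnp1 read 6.11, 5.91 and 6.49 there, and Tnp2 8.59, 8.56 and 8.61. None of the 5 spermatid markers passed the test. The part of the Acrv1 pattern in the X-linked results was not tested. Without Wt P21 replicate 3 the difference of EG382275/EG546272/Slx was 2.96, and without any one of the other arrays it lay between 1.79 and 2.29 and no longer passed. 1700012L04Rik/EG333452, now the histone variant genes H2al1m and H2al1o, read 7.54, 7.38 and 8.26 in Fn adult and 5.89, 6.49 and 6.48 in Wt P21 (difference 1.44, adjusted p = 0.013). 3830403N18Rik/Xlr, of a family of lymphocyte- and germ-cell-expressed genes, differed by 1.01 (adjusted p = 0.028). The call of Tgif2lx/Tgif2lx2 was lost without any one array other than Wt P21 replicate 3, that of 1700012L04Rik/EG333452 without Fn adult replicate 1, and that of 3830403N18Rik/Xlr without any one Fn adult array or Wt P21 replicate 2. The 33 probe sets of Xlr3a/Xlr3b/Xlr3c gave 8.74, 8.37 and 8.33 in Fn adult and 8.10, 7.96 and 8.42 in Wt P21, which overlapped.

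The 111 groups with a level that name a pseudogene of any kind had a median level of 10.63. Of these 12 rose (10.8%) and none fell, where 8.96% of all groups with a level rose and 1.25% fell. Among the 12 were Cyp21a1/Cyp21a2-ps, C4a/C4b, Cd1d1/Cd1d2 and H2-T10/H2-T17/H2-T22 described above, whose members lie on 1 chromosome. Ass1/EG432466, where Ass1 is the urea cycle enzyme argininosuccinate synthase, read 12.17, 12.22 and 12.13 in Fn adult and 11.31, 11.05 and 10.43 in Wt P21 (difference 1.24, adjusted p = 0.012). All 20 probe sets were higher and 13 rose, and Ass1 had no probe set of its own. EG665937/Ftl1/Ftl2, the light chain of the iron store ferritin, read 12.31, 12.28 and 12.22 in Fn adult and 11.93, 11.40 and 11.38 in Wt P21 (difference 0.70, adjusted p = 0.038). EG667723/Ptp4a1, a phosphatase, differed by 0.58 (adjusted p = 0.039) with all 15 probe sets higher and none past the test alone. EG330129/Kat2b, a histone acetyltransferase, and Ccnd3/Ccnd3-ps, a D-type cyclin, differed by 0.68 and 0.58. The own levels of Kat2b and Ccnd3 rose too, by 0.78 and 0.48, while 7 of 17 and 0 of 9 of their own probe sets rose alone. None of these 5 groups passed when replicate 1 or 2 of Fn adult was left out, and 4 of them, all but Ass1/EG432466, did not pass when replicate 2 of Wt P21 was left out. Leaving out replicate 3 of Fn adult also ended the calls other than that of EG330129/Kat2b, and the difference of Ass1/EG432466 lay between 0.99 and 1.43 over all settings run. Quantile normalization ended the calls of EG330129/Kat2b and EG667723/Ptp4a1. A fit with replicate number as block ended those of EG667723/Ptp4a1 and Ccnd3/Ccnd3-ps.

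**Figure D3:**
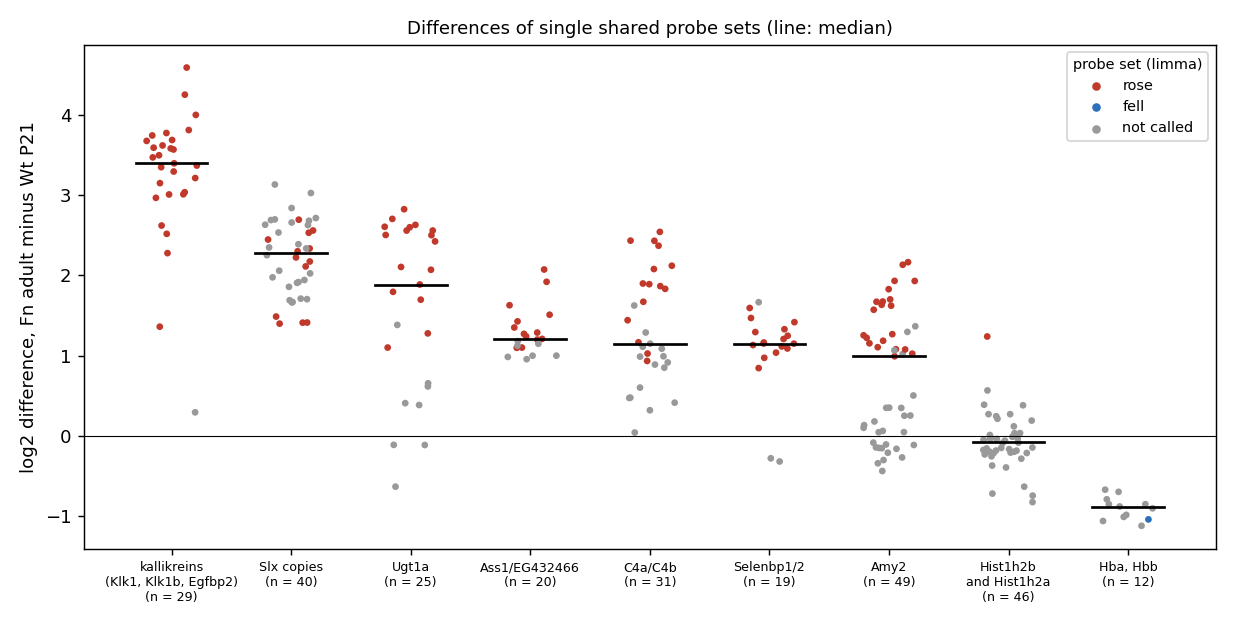
Log2 difference Fn adult minus Wt P21 (y axis) of single shared probe sets in 9 sets of groups (x axis, with the number of probe sets); red points rose, blue fell and grey did not pass in the limma fit, and the black line is the median of the set. The 29 kallikrein probe sets lie highest around a median of 3.40, all 40 Slx probe sets lie above 0, and all 12 globin probe sets lie below 0.

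Some groups joined genes of different function. Cyp4v3/Klkb1 are neighbours on chromosome 8, a fatty acid hydroxylase and plasma prekallikrein. The shared level differed by 0.91 (adjusted p = 0.0068), the 14 own probe sets of Cyp4v3 by 0.74 (adjusted p = 0.015) and the 20 of Klkb1 by -0.11 (adjusted p = 0.74). Igsf5/Pcp4, an adhesion molecule and a calmodulin-binding peptide gene on chromosome 16, read 8.52, 8.01 and 8.35 in Fn adult and 7.51, 7.23 and 7.65 in Wt P21 (difference 0.83, adjusted p = 0.025). The level of Pcp4 from its own 5 probe sets went the other way, although 1 of the 5 rose, with mean levels of 6.93 in Fn adult and 7.91 in Wt P21 (difference -0.98, adjusted p = 0.048). Igsf5 had no probe set of its own. For the near copies Selenbp1 and Selenbp2 the own levels differed by 1.06 and 0.25, and 5 of 6 and 2 of 6 own probe sets rose. For Cd1d1 and Cd1d2 the own levels differed by 1.23 and -0.02, and 0 of 3 and 1 of 6 own probe sets rose. The difference between the copies was not tested in either pair. The call of Igsf5/Pcp4 was lost without Fn adult replicate 1 or 3 or Wt P21 replicate 1 or 2, and with the mean of probe sets its difference was 0.42.

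Not every called group named a gene with a level from probe sets of its own. Of the 43 groups that rose, 17 named no gene with a level of its own, and 7 of these named no gene with any own probe set. In 19 of the 43 the own level of at least 1 named gene rose, in 6 none was called, and in 1, Igsf5/Pcp4, the gene with a level fell. Of the 6 groups that fell, 3 named no gene with an own probe set and in the other 3 no named gene was called.

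To test whether a shared probe set changed between the groups of arrays otherwise than a gene it names, the level of that gene on the same array was subtracted. This gave 2873 index values for shared probe sets. Of these 9 rose (0.313%) and 2 fell (0.0696%), where 0.00998% of all index rows rose and 0.0171% fell. Most index rows are own probe sets, set against a median that holds them, so the shares are not alike in kind. All 11 calls of shared probe sets were kallikreins. Probe set 5033562 of Klk1/Klk1b5 stood at 0.53, 0.72 and -0.11 against Klk1b5 in Fn adult, and at -3.68, -3.68 and -3.24 in Wt P21, an index difference of 3.92 (adjusted p = 0.036). In all, 5 of the 8 probe sets of Klk1/Klk1b5 rose against Klk1b5, by 2.67 to 3.92, and none passed against Klk1 (lowest adjusted p = 0.059). The falls were probe set 4333598 of Klk1b24/Klk1b9 against Klk1b24 (-1.80) and 5164970 of Klk1b21/Klk1b22/Klk1b24 against Klk1b22 (-1.60). Own levels of the 2 genes were medians of few and uneven probe sets: 2 of 3 rose for Klk1 and 3 of 5 for Klk1b5, while their levels differed by 1.02 and 0.34. None of the 11 index calls was kept when any one array was left out.

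**Figure D4:**
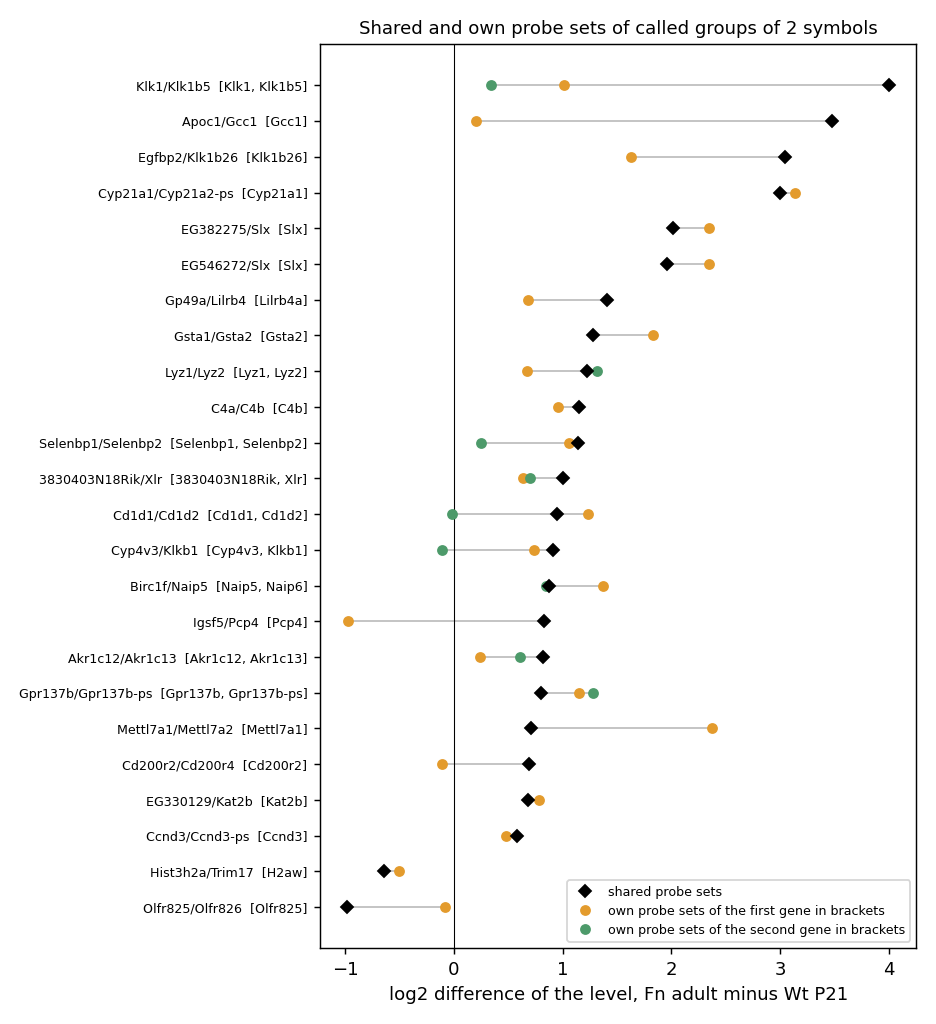
Log2 difference of the level, Fn adult minus Wt P21 (x axis), for called groups of 2 symbols (y axis) that name a gene with a level of its own; black diamonds are the shared probe sets and coloured circles the own probe sets of the genes in brackets. Shared and own differences lie close together for Cyp21a1 (2.99 and 3.13) and far apart for Apoc1/Gcc1 (3.47, with 0.20 for Gcc1), and Pcp4 lies on the other side of 0.

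Falls were few. Hba-a1/Hba-a2 read 11.36, 10.53 and 10.68 in Fn adult and 11.82, 11.90 and 11.93 in Wt P21, a difference of -1.02 ± 0.21 (SE, adjusted p = 0.022). It was the only group that fell with a level above the median gene. Hbb-b1/Hbb-b2, the beta globins, read 12.05, 10.73 and 11.21 in Fn adult and 12.28, 11.94 and 12.22 in Wt P21 and did not pass (-0.82, adjusted p = 0.12). All 12 globin probe sets were lower in Fn adult and 1 fell. The red cell markers did not move together, since Alas2 rose (1.25) and Slc4a1 differed by -0.40. The call of Hba-a1/Hba-a2 was lost without Fn adult replicate 2 or 3 or Wt P21 replicate 1 or 2.

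Histone genes gave another fall, at a low level. The group of 8 Hist1h2b symbols, genes of the core histone H2B, read 6.00, 5.78 and 5.43 in Fn adult and 6.25, 6.92 and 6.67 in Wt P21 (difference -0.88, adjusted p = 0.038), although none of its 7 probe sets passed alone. The single probe sets differed by -0.83 to -0.03, so the fall of the median level was larger than that of any of them. The other 10 groups with a level in which every symbol is a histone gene, H3f3a/H3f3b among them, did not pass. Hist3h2a/Trim17, which joins an H2A gene to an overlapping ubiquitin ligase gene and so was outside that list, read 8.20, 8.17 and 8.14 in Fn adult and 8.60, 8.79 and 9.05 in Wt P21 (difference -0.64, adjusted p = 0.030). Olfr825/Olfr826 (-0.98), the Cyp3a11/Cyp3a41a/Cyp3a41b/Cyp3a44 group (-0.67) and a group of D5Ertd577e, E330014E10Rik and predicted genes (-0.58) made up the rest. Calls of these 5 groups were lost when each Fn adult array, and when Wt P21 replicate 2, was left out. With the mean of probe sets the differences of Olfr825/Olfr826 and of the Hist1h2b group were -0.37 and -0.51 and no longer passed. The Cyp3a and D5Ertd577e groups also lost their calls with that mean, and with a variance trend and robust fit. With the replicate number as a block, all of these but Olfr825/Olfr826 lost the call, as did Hist3h2a/Trim17. The D5Ertd577e group kept its call in 3 of 11 settings.

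**Figure D5:**
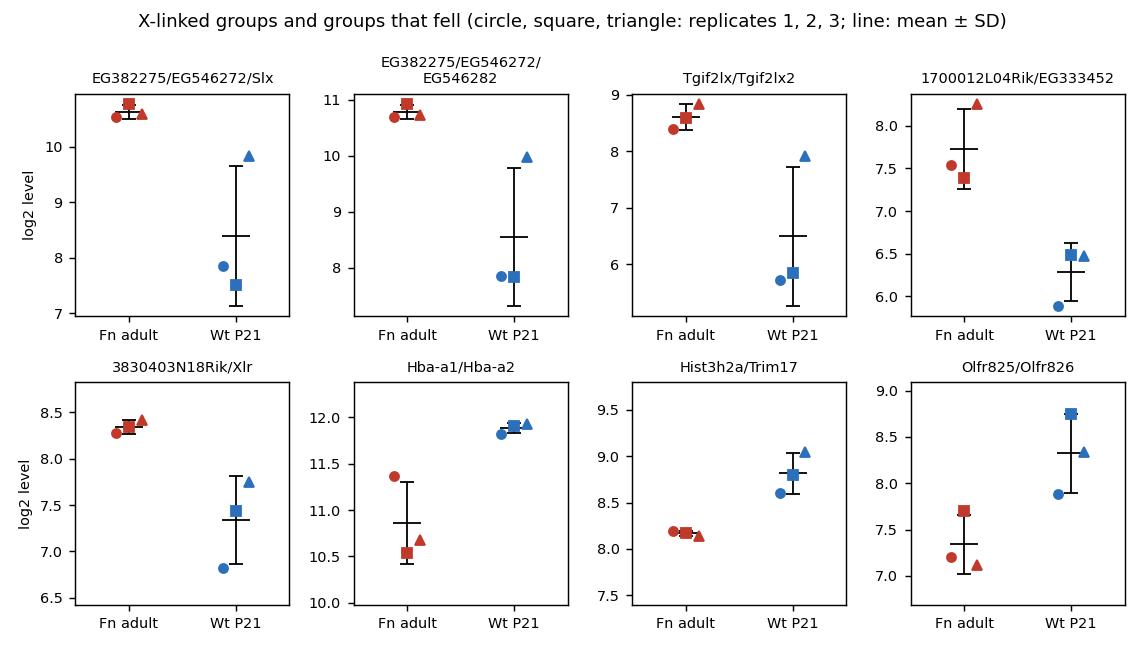
Log2 level (y axis) of 5 X-linked groups that rose and 3 groups that fell, with Fn adult on the left and Wt P21 on the right of each panel; circles, squares and triangles are replicates 1, 2 and 3, and the line with caps is the mean ± SD. In the Slx and Tgif2lx groups Wt P21 replicate 3 (9.84 for EG382275/EG546272/Slx) stands above the other Wt P21 arrays.

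Apart from the amylases described below, the 8 groups that rose and were not yet named include 3 with a pseudogene and 1 on the X chromosome. These are part of the counts above. Defa-ps1/Defcr17/Defcr23/Defcr25/Defcr3/EG626682, of the alpha-defensins that the gut secretes against bacteria, read 6.78, 6.46 and 6.91 in Fn adult and 5.16, 5.14 and 5.22 in Wt P21 (difference 1.54, adjusted p = 0.00079). Its 4 probe sets were all higher, and 2 of them rose. Stxbp3a/Stxbp3b, named for a syntaxin-binding protein of vesicle fusion, differed by 0.88 (adjusted p = 0.0074) and 5 of its 8 probe sets rose. The others differed by 0.69 to 0.93 and were Gpr137b/Gpr137b-ps, 9930111J21Rik/Psme2b-ps, Tu11/Ubl4 on the X chromosome, Mettl7a1/Mettl7a2, Cd200r2/Cd200r4 and Olfr239/Olfr55. Each of these others lost the call without Fn adult replicate 1 and without replicate 2. Calls of 9930111J21Rik/Psme2b-ps and Olfr239/Olfr55 were kept in 4 and 5 of 11 settings, and were also lost after quantile normalization. The mean level of Olfr239/Olfr55 was 5.38, below the lower quartile of the table (7.50).

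Most large groups and families had no call. The groups with the most probe sets were the pancreatic amylases 1810008N23Rik/Amy2/Amy2-2 with 49, Gtf3c2/Mpv17 with 35, AV320801/EG331529/Pramel3 and Xlr3a/Xlr3b/Xlr3c with 33 each, and Cerkl/Itga4 with 32. Of these only the amylases rose, at low levels of 6.30, 6.24 and 6.48 in Fn adult and 5.43, 5.50 and 5.79 in Wt P21 (difference 0.77, adjusted p = 0.017), with 21 of 49 probe sets past the test, and lost the call without any one Fn adult array or Wt P21 replicate 2. Of 57 olfactory and vomeronasal groups with a level 1 rose and 1 fell. The 5 groups of protocadherin alpha, cell adhesion genes with alternative first exons, lay between -0.57 and 0.01, and the 5 of protocadherin gamma between -0.28 and 0.51, with no group called in either. Nor was there one among 4 serpin and 3 Mage groups with a level, or in the alpha tubulins Tuba3a/Tuba3b, the ribosomal Rpl36a/Rpl36al, the zinc finger pair Zfp110/Zfp369, the interferon-induced Oas1a/Oas1g, Ly6c1/Ly6c2, the immunoglobulin pair Igh/Igh-6 or Defcr21/Defcr22. A family list held only groups in which every array symbol matched the family's names. Many ribosomal and some zinc finger groups, such as EG625298/Rps13 and 1200003I07Rik/Zfp120, were therefore outside these lists. Actins, axoneme genes and sulfotransferases had no group of their own.

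Germ cell markers (Ddx4, Dazl, Sycp3, Mael and Piwil1) stood between 11.29 and 13.08 on all arrays, so the label of testis was borne out, and 1 of the 5 (Piwil1) fell by 0.50. The epididymal marker Crisp1 read 4.03, 4.70 and 4.28 in Fn adult and 10.26, 8.74 and 4.30 in Wt P21, so it was high in Wt P21 replicates 1 and 2, whereas Lcn5 and Lcn8 stayed below the lower quartile of probe sets on every array. The part of this in the falls was not tested.

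Promoter sequences could be matched for 72 of the 106 genes named by called groups. The letters TATAAA on the plus strand of the 250 bases before the start were found in 9 of 54 genes of groups that rose (16.7%) and in 8.12% of 27025 genes. The letters AAGGTCA, searched on both strands, were found in 4 of the 54 (7.41%), Ccnd3, Gm44504, Klk1 and Lyz1, and in 4.05% of all. Genes of 1 group are often near copies of each other, and a match is a description of the sequence only.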

How the data were processed

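Total RNA of whole testes was extracted with Trizol, amplified as cDNA, labelled with biotin and hybridised to 6 exon arrays. The authors deposited log2 values, 1 for each of 229581 probe sets and array. The submitters' processing notes name build mm8 and the study's methods name the EASANA system, while background correction and normalization are not given in the sources used here. Values were used as deposited, and for arrays their number limits the precision. All 6 columns were mapped to a sample.

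Symbols came from the array annotation and were updated through RefSeq genes of GRCm38.p6, from which neighbours and chromosomes were taken. Levels were medians over at least 3 probe sets. Linear models were fitted with limma (3.58.1; lmFit, then eBayes) under R (4.3.3), data.table (1.17.8) and statmod (1.5.0), two-sided, with Benjamini-Hochberg adjustment over all rows of a fit (229581 probe sets, 15687 levels, or 210386 index values) and a threshold of 0.05. "Rose" and "fell" mean past it. The fits were tested on simulated data. Tables used Python 3.11.15, pandas 2.3.3 and, for alignments, Biopython 1.88. P-values measure the spread between these biological replicates.

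Members, lists and tests were chosen with earlier results of these data known. Named groups were those naming a gene the study followed up, the 10 largest rises and falls past the threshold with no overlap and a level above the median gene (8.92), the 5 groups with most probe sets, the 5 largest rises and falls among probe sets of smaller groups (no fall qualified), up to 3 groups per family list, and the 5 with most index calls. Other groups were named after their values were seen. Alternatives were quantile normalization, a fit with replicate number as block, a variance trend with robust eBayes, each array left out, a filter on low levels, the mean of probe sets, and at least 2 probe sets.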

Additional observations from a re-analysis of the deposited data

How the results depend on the processing

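Of the 49 called groups, 16 were called in every setting that gave them a value, among them Klk1/Klk1b5, Egfbp2/Klk1b26, Apoc1/Gcc1, Cyp21a1/Cyp21a2-ps, both Ugt1a groups, Gsta1/Gsta2, Creg1/Pappa2, Lyz1/Lyz2, C4a/C4b and Selenbp1/Selenbp2. The other 33 lost the call in at least 1 setting, and no difference of a named or called group changed sign in the settings run. Leaving out an array gave 90 to 500 called shared probe sets (261 as reported), 18 to 95 called groups (49) and 0 called index values in each case (11). Called groups lost numbered 32, 31 and 28 without Fn adult replicates 1, 2 and 3, and 12, 25 and 0 without Wt P21 replicates 1, 2 and 3. Without Wt P21 replicate 3, 500 probe sets and 95 groups were called, the highest of these settings. With only levels above the median probe set, 31 groups of 200 and 19 index values were called, and with the mean of probe sets 78 groups and 39 index values. With a variance trend and robust fit 35 index values were called. With the replicate number as a block, 0 index values, 49 groups and 195 probe sets were called, and 8 of the called groups were lost. Arrays of the same number had correlations of deviations of 0.17, -0.08 and -0.005, and arrays of different numbers -0.13 to 0.14, so the numbers were not read as pairs. Quantile normalization lost 5 of the called groups and gave 57, of which 18 fell. The cause of these changes was not tested.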
